A study of Homo sapiens with 18 samples.

Results

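RUNX1T1, CBFA2T2 and CBFA2T3 encode the human MTG (myeloid translocation gene) co-repressors, and RUNX1 encodes the transcription factor that is fused to RUNX1T1 in acute myeloid leukaemia. These 4 genes were taken by symbol from the 28063 genes counted in human neuroblastoma cells. RUNX1T1 was chosen because its newly made RNA went down in IMR-32 and up in both KELLY and SK-N-DZ after BRM014, so its levels and changes are given as a description with no test. The other 3 genes came in by family name, and CBFA2T2 and CBFA2T3 were tested, whereas RUNX1 had too few counts to pass the filter. MTG proteins do not bind a DNA motif of their own. Transcription factors bring them to DNA, where they recruit NCoR co-repressor complexes, SIN3 and histone deacetylases.

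Newly made messenger RNA was measured in established neuroblastoma lines. The lines IMR-32, KELLY and SK-N-DZ, WT in genotype per the labels, received 1 uM BRM014, an inhibitor of the chromatin remodelling ATPases SMARCA4 and SMARCA2, or DMSO. Engineered IMR-32 cells whose SMARCA4 carries an auxin-inducible degron (SMARCA4-mAID) received 500 uM auxin or ethanol. All 16 of these libraries, 2 per group, came from cells given 500 uM of the uridine analogue 4-thiouridine (4sU) for 2 h, which marks RNA made in that time. The other 2 libraries were KELLY cells without 4sU. The sources used here do not give the length of treatment or say whether SMARCA4-mAID is 1 clone or several. The labels do not tell if the 2 libraries in each group were grown apart, so each p-value reflects differences between libraries that may be only technical.

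Labelled libraries held 724913 to 1740475 counts on genes. BRM014 libraries were shallower than DMSO libraries in IMR-32 (741970 and 775064 counts with BRM014, against 1438139 and 1148208 with DMSO) and in SK-N-DZ (724913 and 758288 with BRM014, against 1589230 and 1740475 with DMSO). The part of this difference in the results was not tested, other than by the scaling alternatives described at the end. Of 8 adrenergic neuroblastoma markers, PHOX2A, HAND2, GATA3, MYCN and ISL1 had at least 190 counts in every labelled library, whereas TH and DBH were at or near 0 in IMR-32 and SMARCA4-mAID cells and, as given beside RUNX1T1 below, differed with BRM014 in the other lines. Of 6 blood cell markers, SPI1, CD3E and MPO were at 0 in every labelled library and the others had at most 6 counts. SMARCA4 RNA averaged 614 ± 42.4 CPM (the count per 1000000 counts on genes) with auxin and 783 ± 82.9 CPM with ethanol (SD, n = 2 each), and it was not called by edgeR's quasi-likelihood test (log2 change -0.35, adjusted p = 0.109). In the parental IMR-32 line it averaged 75.1 ± 1.41 CPM with BRM014 and 93.7 ± 11.6 CPM with DMSO, and ethanol-treated SMARCA4-mAID cells were higher than DMSO-treated IMR-32 cells (log2 difference 3.04, edgeR adjusted p = 3.01e-33). These counts do not measure SMARCA4 protein or its activity.

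The promoters of CBFA2T2 and CBFA2T3 are shown because these genes went in opposite directions with BRM014 in IMR-32. The sequences are from RefSeq on GRCh38.p14, 250 bases before to 50 after the start, with E-box letters (CANNTG, the motif of the E proteins that MTG proteins bind) in capitals. The first is chr20:33562092-33562391 on the plus strand, a start inside the CBFA2T2 locus, and the second is chr16:88941301-88941600 on the minus strand, inside the CBFA2T3 locus.
CBFA2T2 promoter: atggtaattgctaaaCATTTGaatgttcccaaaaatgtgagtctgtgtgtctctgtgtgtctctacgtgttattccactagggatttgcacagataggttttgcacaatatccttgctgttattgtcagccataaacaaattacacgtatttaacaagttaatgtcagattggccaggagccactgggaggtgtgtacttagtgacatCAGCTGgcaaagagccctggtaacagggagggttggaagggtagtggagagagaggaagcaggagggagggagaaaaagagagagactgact
CBFA2T3 promoter: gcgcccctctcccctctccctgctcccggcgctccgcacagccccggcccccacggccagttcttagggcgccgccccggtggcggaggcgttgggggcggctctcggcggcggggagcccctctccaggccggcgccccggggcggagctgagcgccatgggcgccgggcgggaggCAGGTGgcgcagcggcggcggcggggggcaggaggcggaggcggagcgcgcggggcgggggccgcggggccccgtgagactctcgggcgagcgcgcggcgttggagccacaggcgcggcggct
The CBFA2T2 window was 44.3% GC with 2 CpG, and the CBFA2T3 window was 83% GC with 46 CpG, where the median of 35116 promoters of 300 bases was 14 CpG. CBFA2T2 had 2 E-box matches and CBFA2T3 had 1, and 68.7% of promoters had at least 1. Neither window held the RUNX letters TGTGGT or TGCGGT on either strand, which 13.1% and 7.29% of promoters held. A match is a run of letters and not a measured binding site. Counts per gene do not show whether these starts, rather than others of the same genes, were used.

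RUNX1T1 lies on chromosome 8 (91954967 to 92103385, minus strand), CBFA2T2 on chromosome 20 (33490096 to 33650030, plus strand), CBFA2T3 on chromosome 16 (88874858 to 88977207, minus strand) and RUNX1 on chromosome 21 (34787801 to 35049302, minus strand), by RefSeq positions and GENCODE strands on build GRCh38. Their merged GENCODE exons span 13.54 kb in RUNX1T1, 9.457 kb in CBFA2T2, 5.972 kb in CBFA2T3 and 15.57 kb in RUNX1. 4sU takes the place of uridine, so a transcript needs T positions to be marked. CBFA2T3 transcripts had a median of 15.96% T and 64.4% GC, whereas the other 3 genes had 23.0% to 24.9% T. The part of this in the CBFA2T3 level was not tested.

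RUNX1T1 had 178 and 237 CPM in IMR-32 cells with BRM014, against 481 and 457 CPM with DMSO. Both BRM014 libraries lay below both DMSO libraries, with a log2 change of -1.13 (SE 0.13). In KELLY cells the direction was the opposite, with 365 and 359 CPM with BRM014, against 165 and 123 CPM with DMSO (log2 change 1.36, SE 0.13). SK-N-DZ cells had 607 and 699 CPM with BRM014, against 250.4 and 250.5 CPM with DMSO (log2 change 1.39, SE 0.12). Treated and vehicle libraries did not overlap in any of these lines. In SMARCA4-mAID IMR-32 cells RUNX1T1 had 294 and 297 CPM with auxin, against 421 and 408 CPM with ethanol, again without overlap, and the log2 change was -0.49 (SE 0.12). The changes in the IMR-32 backgrounds were thus downward and those in the other lines upward, which is the pattern for which the gene was chosen. For scale, 10.99% of the 12853 genes tested had a lower log2 change than RUNX1T1 in IMR-32, 4.40% had a higher one in KELLY, 4.61% had a higher one in SK-N-DZ, and 15.1% had a lower one after auxin.

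**Figure D1:**
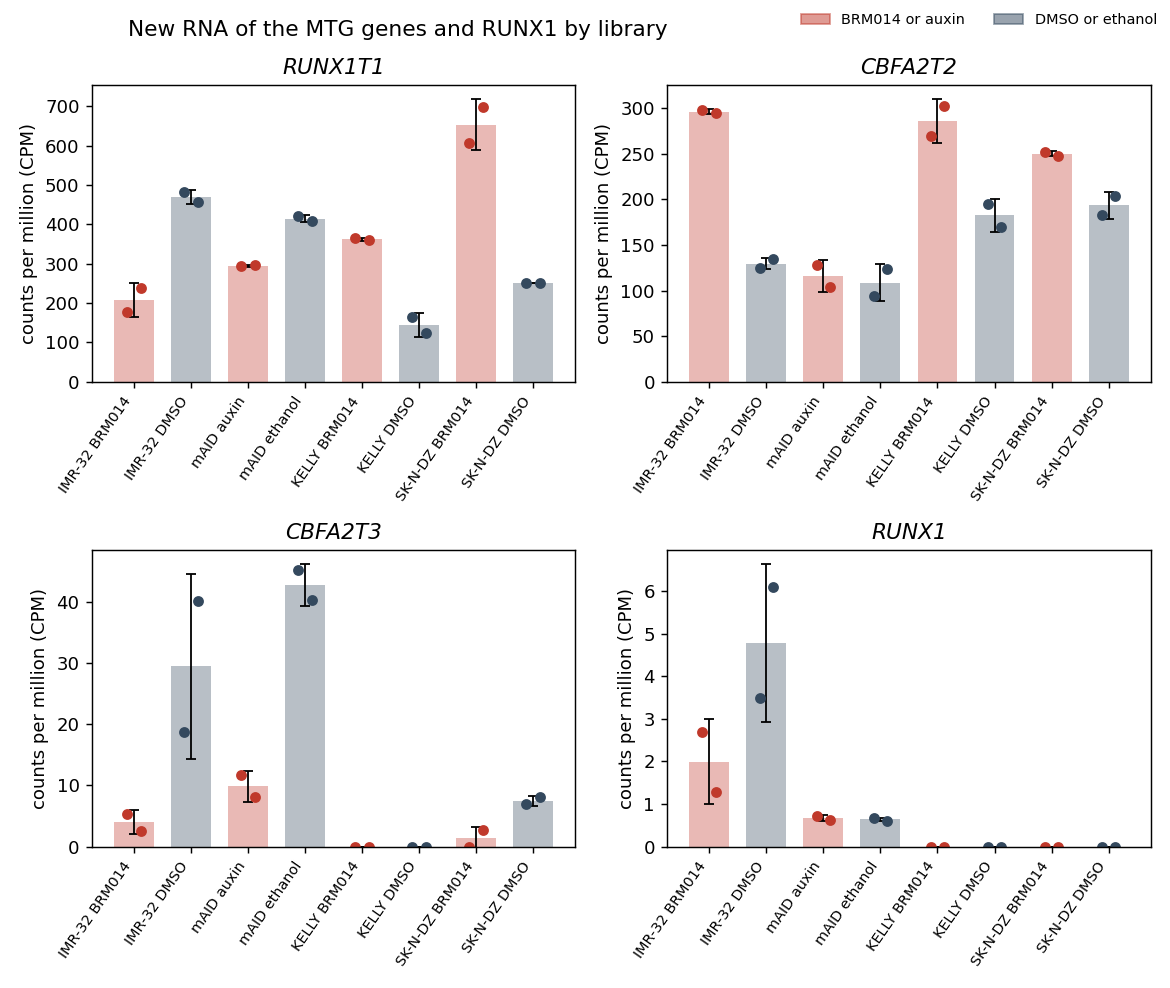
Level of each gene in CPM (y axis) in the 8 labelled groups, with BRM014 or auxin groups (red) left of their DMSO or ethanol groups (grey); points are libraries, bars means and error bars SD of 2 libraries, and each panel has its own scale from 0. RUNX1T1 runs from 144 CPM in KELLY with DMSO to 653 CPM in SK-N-DZ with BRM014, whereas CBFA2T3 and RUNX1 were at 0 in KELLY.

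From low to high, mean RUNX1T1 was 144 ± 30.0 CPM in KELLY with DMSO, 208 ± 42.1 in IMR-32 with BRM014, 250.5 ± 0.0499 in SK-N-DZ with DMSO, 295 ± 2.61 in SMARCA4-mAID with auxin, 362 ± 3.94 in KELLY with BRM014, 414 ± 9.39 in SMARCA4-mAID with ethanol, 469 ± 16.9 in IMR-32 with DMSO and 653 ± 65.0 in SK-N-DZ with BRM014 (SD, n = 2 each). No neighbouring groups in this order overlapped. The line with the highest DMSO level, IMR-32, was thus near the bottom of the order with BRM014. The BRM014 change was larger by 2.48 (SE 0.19) in KELLY than in IMR-32 and by 2.52 (SE 0.18) in SK-N-DZ than in IMR-32, on the log2 scale, and these differences were not tested. SK-N-DZ and KELLY differed in their BRM014 change by 0.03 (95% interval -0.33 to 0.39). In KELLY the summed level of 6 mesenchymal markers also differed, at 458 to 472 CPM with BRM014 and 153 to 210 CPM with DMSO. Of the 4 markers of that list that passed the filter over all groups, 1 was called higher in KELLY (TWIST1, 447 CPM with BRM014 and 175 CPM with DMSO, log2 change 1.41). YAP1, also among the 4, was at 0 in KELLY and could not be called there. VIM averaged 2.31 CPM with BRM014 and 0 with DMSO. PRRX1 and FOSL1, which were not tested, were at or near 0. The part of the mesenchymal markers in the RUNX1T1 change was not tested. In IMR-32 the list summed to 239 to 253 CPM with BRM014 and 352 to 360 CPM with DMSO, and TWIST1 was the 1 of 4 called, at a log2 change of -0.54 (edgeR adjusted p = 0.0137), a call that the GC and length correction (-0.15) and leaving out BRM014 replicate 2 (-0.47), DMSO replicate 1 (-0.56) or DMSO replicate 2 (-0.52) each ended. In SK-N-DZ the same list summed to 178 to 214 CPM with BRM014 and 181 to 185 CPM with DMSO, with none of the 4 called by edgeR (1 at an unadjusted p under 0.05, 0 by DESeq2). YAP1 and CD44 averaged 0.862 and 0.889 CPM with DMSO there and 0 with BRM014, so a change in them could hardly have been called.

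The adrenergic markers TH and DBH fell with BRM014 in KELLY and SK-N-DZ, the lines in which RUNX1T1 was higher with BRM014. TH, the first enzyme of catecholamine synthesis, averaged 0.332 ± 0.470 CPM in KELLY with BRM014 and 97.9 ± 36.7 CPM with DMSO (edgeR adjusted p = 9.32e-13), and in SK-N-DZ it was at 0 in both libraries with BRM014 and averaged 17.8 ± 3.27 CPM with DMSO (adjusted p = 5.12e-05). DBH, which makes noradrenaline, averaged 29.2 ± 7.59 CPM in KELLY with BRM014 and 225 ± 6.43 CPM with DMSO (adjusted p = 1.53e-14), and 6.09 ± 1.15 CPM in SK-N-DZ with BRM014 and 180 ± 25.4 CPM with DMSO (adjusted p = 1.48e-17). Of the 8 adrenergic markers, 2 were called higher and 4 lower in KELLY, 4 higher and 3 lower in SK-N-DZ, 0 higher and 2 lower in IMR-32, and 1 higher and 1 lower after auxin. Their summed level was 9727 to 10060 CPM with BRM014 and 9956 to 11240 CPM with DMSO in KELLY, 13380 to 14390 CPM with BRM014 and 10790 to 10870 CPM with DMSO in SK-N-DZ, 6197 to 6328 CPM with BRM014 and 7466 to 8250 CPM with DMSO in IMR-32, and 8183 to 9355 CPM with auxin and 8195 to 8285 CPM with ethanol. MYCN was the largest part of each sum, so the sums do not weigh the 8 markers evenly. It averaged 4713 CPM with BRM014 and 6953.5 CPM with DMSO in KELLY, and 8612.7 and 6387.8 CPM in SK-N-DZ. In IMR-32 it averaged 3368.5 CPM with BRM014 and 4766.2 CPM with DMSO, and in SMARCA4-mAID cells 6214.2 CPM with auxin and 5594.1 CPM with ethanol. The part of these markers in the RUNX1T1 changes was not tested.

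CBFA2T2, a widely expressed MTG co-repressor, rose with BRM014 in IMR-32 and KELLY. It had 298 and 294 CPM in IMR-32 with BRM014, against 125 and 134 CPM with DMSO, so that the groups stood well apart. The log2 change was 1.24 (SE 0.16, edgeR adjusted p = 1.48e-09). In IMR-32, CBFA2T2 and RUNX1T1 therefore moved in opposite directions in the same libraries. In KELLY it had 269 and 303 CPM with BRM014, against 195 and 170 CPM with DMSO, a log2 change of 0.69 (SE 0.15, edgeR adjusted p = 0.000248). At an adjusted p under 0.05, edgeR called 12.8% of the genes tested in IMR-32 (6.26% higher, 6.57% lower) and 11.6% in KELLY (6.57% higher, 4.98% lower). In SK-N-DZ the values were 252 and 248 CPM with BRM014, against 183 and 204 CPM with DMSO. The groups did not overlap, but the log2 change of 0.38 (95% interval 0.07 to 0.68) was not called (edgeR adjusted p = 0.0705, with 19.4% of genes called there, 9.88% higher and 9.55% lower). A fit to the 4 SK-N-DZ libraries alone did call it (log2 change 0.40, adjusted p = 0.0418), as did a correction for GC content and length (0.48, adjusted p = 0.0212). In SMARCA4-mAID cells the libraries overlapped, at 129 and 104 CPM with auxin and 94.3 and 123 CPM with ethanol. The log2 change of 0.08 (95% interval -0.24 to 0.41) was not called (edgeR adjusted p = 0.935), in a comparison in which 2.19% of genes were (1.03% higher, 1.16% lower).

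The CBFA2T2 response was smaller in SK-N-DZ than in IMR-32, by a test of the difference. The log2 change with BRM014 was smaller by 0.87 in SK-N-DZ than in IMR-32 (difference -0.87, SE 0.22, edgeR interaction adjusted p = 0.0118, with 2.61% of genes called), which fell short of the threshold without IMR-32 DMSO replicate 1 (-0.82, adjusted p = 0.0788) or without SK-N-DZ DMSO replicate 2 (-0.78, adjusted p = 0.0894). KELLY minus IMR-32 was -0.56 (95% interval -0.98 to -0.13, adjusted p = 0.170, 3.28% of genes called), and SK-N-DZ minus KELLY was -0.31 (95% interval -0.73 to 0.11, adjusted p = 0.556, 3.9% called). The change with BRM014 in IMR-32 exceeded that with auxin in SMARCA4-mAID cells by 1.16 (SE 0.23, edgeR interaction adjusted p = 0.000533, 1.95% called). BRM014 and auxin were given to different IMR-32 cells, with different vehicles.

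**Figure D2:**
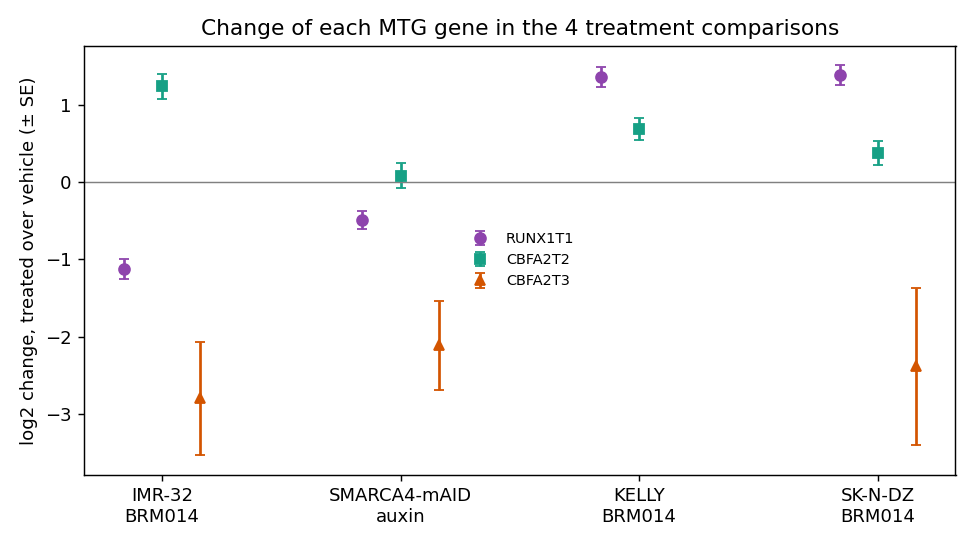
Log2 change (y axis, treated over vehicle, ± SE from the edgeR fit to 16 libraries) of RUNX1T1, CBFA2T2 and CBFA2T3 in the 4 treatment comparisons (x axis). RUNX1T1 is at -1.13 in IMR-32 and at 1.36 and 1.39 in KELLY and SK-N-DZ. CBFA2T2 is above 0 with BRM014 in each line, and after auxin its bar crosses 0 (0.08, SE 0.16). CBFA2T3, absent from KELLY, is below 0 with long bars in the others.

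CBFA2T3, the family member best known from blood progenitors, was a low-count gene that fell in both IMR-32 backgrounds. It had 4 and 2 counts (5.39 and 2.58 CPM) in IMR-32 with BRM014, against 27 and 46 counts (18.8 and 40.1 CPM) with DMSO. The log2 change was -2.80 (SE 0.74, edgeR adjusted p = 0.00457). This call was lost without BRM014 replicate 2 (-2.36, adjusted p = 0.0926) or DMSO replicate 2 (-2.17, adjusted p = 0.119). In SMARCA4-mAID cells it had 16 and 13 counts (11.6 and 8.06 CPM) with auxin, against 68 and 66 counts (45.2 and 40.3 CPM) with ethanol. The log2 change was -2.12 (SE 0.57, edgeR adjusted p = 0.0226), and the libraries did not overlap, yet leaving out any single library of the 4 ended the call (-2.39 to -1.88, adjusted p = 0.118 to 0.303). The BRM014 and auxin changes differed by -0.68 (95% interval -2.59 to 1.22, adjusted p = 0.86), a value that ran from -1.29 without IMR-32 BRM014 replicate 1 and -1.14 without IMR-32 DMSO replicate 1 to -0.25 without IMR-32 BRM014 replicate 2 and -0.058 without IMR-32 DMSO replicate 2. SK-N-DZ had 0 and 2 counts with BRM014, against 11 and 14 with DMSO. Over summed counts, scaled to library totals, this is 5.57-fold lower with BRM014 (95% counting interval 1.39 to 48.5), and it was not called (edgeR adjusted p = 0.0902). KELLY had 0 counts in each of 4 labelled libraries, which allows up to 0.994 CPM with BRM014 and 1.06 CPM with DMSO (3 counts over the group, counting error only).

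RUNX1, the DNA-binding partner in the leukaemic fusion, did not pass the filter on low counts in any comparison. It had 2 and 1 counts in IMR-32 with BRM014, against 5 and 7 with DMSO, or 0.426 times the DMSO level (95% counting interval 0.0772 to 1.58). Each SMARCA4-mAID library had 1 count, and no labelled KELLY or SK-N-DZ library had any, which allows up to 2.02 CPM with BRM014 and 0.901 CPM with DMSO in SK-N-DZ. In DMSO-treated cells the observed IMR-32 level of RUNX1 was 4.37-fold above a floor of 3 counts per group in KELLY. It was 5.15-fold above that floor in SK-N-DZ. The counting error of the 12 summed IMR-32 counts is not in these folds, so the true folds may be smaller. RUNX1T1 and RUNX1 therefore had very unlike levels, at 34.7 and 0.307 CPM per kb of merged exon in IMR-32 with DMSO.

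In vehicle-treated cells the family made up a different mixture in each line. RUNX1T1 was lower in KELLY than in IMR-32 (log2 -1.85, SE 0.13) and lower in SK-N-DZ than in IMR-32 (-1.05, SE 0.12), given as a description. CBFA2T2 ran the other way, at 193.5 ± 14.8 CPM in SK-N-DZ, 182 ± 17.7 in KELLY and 130 ± 6.34 in IMR-32 (SD, n = 2 each). It was higher in SK-N-DZ than in IMR-32 (log2 0.44, SE 0.15, edgeR adjusted p = 0.0152, where 44.1% of genes were called), although not without IMR-32 replicate 1 (0.39, adjusted p = 0.118) or SK-N-DZ replicate 2 (0.35, adjusted p = 0.144). KELLY against IMR-32 was not called (0.34, 95% interval 0.03 to 0.66, edgeR adjusted p = 0.0706, with 39.6% of genes called), but was with each of 3 other scalings listed at the end. SK-N-DZ against KELLY gave 0.09 (95% interval -0.20 to 0.39, adjusted p = 0.680, with 31.8% of genes called). CBFA2T3 was lower in SK-N-DZ than in IMR-32 (log2 -2.09, SE 0.59, edgeR adjusted p = 0.00256), except without IMR-32 replicate 2 (-1.46). It was at -3.38 with the GC and length correction. Its observed IMR-32 level was 26.6-fold above a floor of 3 counts in KELLY, with no error on the IMR-32 count. Ethanol-treated SMARCA4-mAID cells and DMSO-treated IMR-32 cells differed by -0.28 in CBFA2T2 (95% interval -0.60 to 0.05, adjusted p = 0.404) and by 0.52 in CBFA2T3 (95% interval -0.52 to 1.57, adjusted p = 0.694), and 6.16% of genes were called between them. The CBFA2T2 value ran from -0.48 without ethanol replicate 2 to -0.10 without ethanol replicate 1, and the CBFA2T3 value from 0.069 without DMSO replicate 1 to 1.15 without DMSO replicate 2.

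Set against each other per kb of merged exon, RUNX1T1 had 0.417 and 0.564 times the CBFA2T2 level in IMR-32 with BRM014, against 2.69 and 2.38 times with DMSO. RUNX1T1 was thus the more abundant of the 2 per length with DMSO and the less abundant with BRM014. In SK-N-DZ the ratio was 1.68 and 1.97 with BRM014, against 0.956 and 0.858 with DMSO, so the order per length was the reverse. KELLY had 0.947 and 0.828 with BRM014, against 0.593 and 0.506 with DMSO, below 1 in all 4 libraries. SMARCA4-mAID cells had 1.60 and 2.00 with auxin, against 3.12 and 2.31 with ethanol. In mean CPM, without division by length, RUNX1T1 exceeded CBFA2T2 in SK-N-DZ with DMSO (250.5 against 193.5). The same held in KELLY with BRM014 (362 against 286). The order in those groups thus depends on the merged exon lengths, which may not be the lengths of the transcripts made. The other labelled groups kept their order in CPM. CBFA2T3 made up 1.98% and 0.880% of the summed MTG level per kb in IMR-32 with BRM014, against 6.05% and 12.3% with DMSO. These ratios take in RUNX1T1 and so are descriptions.

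**Figure D3:**
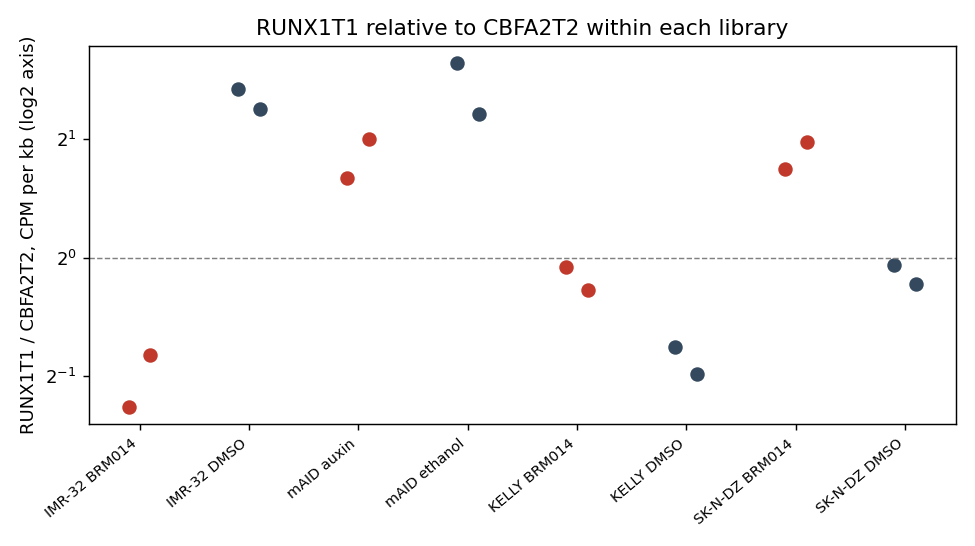
RUNX1T1 level divided by CBFA2T2 level, both in CPM per kb (y axis, log2 scale), in each labelled library (points), with BRM014 or auxin groups (red) left of their DMSO or ethanol groups (grey) and a dashed line at 1. IMR-32 is below 1 with BRM014 and above 2 with DMSO, and SK-N-DZ is above 1 with BRM014 and just below it with DMSO.

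Counts in KELLY cells given no 4sU were low for RUNX1T1 and CBFA2T2. The unlabelled KELLY libraries held 5395 and 4432 gene counts, 0.348% of the KELLY DMSO sum. RUNX1T1 had 0 and 0 of them, against 263 and 152 in KELLY with DMSO. CBFA2T2 had 4 and 0, against 310 and 210, which is 0.769% of its DMSO count. CBFA2T3 and RUNX1 had none, but they also had none in KELLY with DMSO, so these libraries do not show their background.

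The genes beside the tested members were also looked up in RefSeq, since the sources used here do not give the strand setting of the counting. NECAB3, 7.06 kb from CBFA2T2, had at most 42 counts in a library and was not called in a treatment comparison (edgeR adjusted p = 0.631 or higher). The long non-coding genes that overlap CBFA2T3 had at most 11 and 2 counts. SLC26A7, the neighbour to the left of RUNX1T1, had at most 5. Reads of overlapping genes cannot be told apart here.

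Partner genes of MTG proteins are given by list, to be read beside the share of all tested genes that edgeR called, 12.8% in IMR-32, 11.6% in KELLY, 19.4% in SK-N-DZ and 2.19% after auxin. Of RUNX1, RUNX2, RUNX3 and CBFB, only CBFB, the non-DNA-binding subunit of RUNX factors, could be tested; RUNX2 had at most 6 counts and RUNX3 at most 2. CBFB rose in KELLY, at 416 ± 35.5 CPM with BRM014 and 174 ± 40.5 CPM with DMSO (log2 change 1.31, SE 0.15, edgeR adjusted p = 8.12e-12). It was not called in IMR-32 (-0.16), SK-N-DZ (0.25) or after auxin (0.09), where edgeR's unadjusted p was under 0.05 in none and DESeq2 called none. All 10 NCoR, SIN3 and histone deacetylase genes were tested. None was called in IMR-32 (2 at an unadjusted p under 0.05, 0 by DESeq2) or after auxin (0 and 0), where 12.8% and 2.19% of all genes were. In KELLY 1 rose, the deacetylase HDAC2 (log2 change 0.38), and it was lost with the GC and length correction (0.19) and without BRM014 replicate 1 (0.30) or DMSO replicate 1 (0.295). Of those reported here, 1 rose in SK-N-DZ. TBL1XR1, an NCoR complex subunit, averaged 795 ± 160 CPM with BRM014 and 499 ± 29.9 CPM with DMSO (log2 change 0.68, edgeR adjusted p = 3.72e-07). The list medians were 0.05, 0.04, 0.05 and -0.07 in IMR-32, KELLY, SK-N-DZ and after auxin, beside -0.02, 0.00, -0.04 and 0.00 over all genes tested.

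E proteins and the LDB1 complex, which MTG proteins join, had 8 of 10 genes tested. In IMR-32 2 rose and 2 fell, in KELLY 3 rose, in SK-N-DZ 3 rose and 2 fell, and after auxin none was called (3 at an unadjusted p under 0.05, 0 by DESeq2). The shares of all genes called were 12.8% in IMR-32, 11.6% in KELLY, 19.4% in SK-N-DZ and 2.19% after auxin. After the GC and length correction 1 of the list was called in IMR-32 and 3 in SK-N-DZ. TCF4, an E protein, averaged 1268 ± 82.9 CPM in IMR-32 with BRM014 and 833 ± 32.0 CPM with DMSO (log2 change 0.66, edgeR adjusted p = 5.46e-08), and rose by 0.41 in KELLY. TCF12, another E protein, rose in KELLY (0.91, adjusted p = 1.62e-08). TCF3, the third E protein, fell in SK-N-DZ, to 59.2 ± 9.56 CPM with BRM014, against 162 ± 26.6 CPM with DMSO (-1.44, edgeR adjusted p = 2.91e-06; -0.76 and still called after the GC and length correction). LMO4, a LIM-only adaptor, rose in SK-N-DZ, to 323 ± 42.7 CPM with BRM014, against 94.7 ± 26.2 CPM with DMSO (1.77, adjusted p = 2.78e-15). LDB1 fell in IMR-32 (-1.07, adjusted p = 0.000117), except after the GC and length correction (-0.58) and without BRM014 replicate 1 (-0.70). The remaining calls of the list, each at an edgeR adjusted p under 0.05, show that these changes were not confined to the lines named. In IMR-32 they were TCF12 (0.41) and TCF3 (-1.16), and in KELLY SSBP2 (1.16). In SK-N-DZ they were TCF4 (0.33), TCF12 (0.38) and LDB1 (-0.78). Whether each of them held under the alternatives is not given here. The list medians were 0.26, 0.24, 0.34 and -0.06 in IMR-32, KELLY, SK-N-DZ and after auxin.

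Of 10 proteins reported to bind MTG proteins, listed as DNA-binding partners although not all are DNA-binding transcription factors, 6 were tested. In IMR-32 1 rose, in KELLY 1, in SK-N-DZ 2, none fell, and none was called after auxin (1 at an unadjusted p under 0.05, 0 by DESeq2). The shares of all genes called were 12.8%, 11.6%, 19.4% and 2.19% in the same order, and the counts were not tested against them. TCF7L2, a Wnt pathway transcription factor, averaged 31.2 ± 8.62 CPM in SK-N-DZ with BRM014 and 6.62 ± 0.425 CPM with DMSO (log2 change 2.22, edgeR adjusted p = 0.000278). It also rose in IMR-32 (1.44), a call that was lost without BRM014 replicate 2 (0.83), DMSO replicate 1 (1.74) or DMSO replicate 2 (1.22). ATXN1, which encodes ataxin, rose in KELLY (0.95) and SK-N-DZ (0.96), the second of these not without BRM014 replicate 2 (0.76) or DMSO replicate 1 (0.74). The list medians were 0.25, 0.23, 0.55 and 0.06.

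All 4 LSD1-CoREST genes were tested. RCOR2, a CoREST scaffold, fell in each comparison, although in KELLY and SK-N-DZ the call did not outlast the GC and length correction. It fell to 15.97 ± 9.81 CPM in IMR-32 with BRM014, against 92.4 ± 9.73 CPM with DMSO (log2 change -2.48, SE 0.34, edgeR adjusted p = 1.91e-08), and to 24.0 ± 10.2 CPM with auxin, against 99.1 ± 4.89 CPM with ethanol (-2.07, adjusted p = 3.65e-08). In SK-N-DZ it was -0.80 (adjusted p = 0.00847), with no call after the GC and length correction (-0.02) or without BRM014 replicate 2 (-0.64) or DMSO replicate 2 (-0.65). In KELLY it was -0.88 (adjusted p = 0.0351) and was not called after the GC and length correction (-0.36), in a fit to the 4 KELLY libraries (-0.88) or without BRM014 replicate 1 (-0.61) or DMSO replicate 1 (-0.55). Its paralog RCOR1 rose in SK-N-DZ (1.09) and in KELLY (0.74), in KELLY not without BRM014 replicate 1 (0.52) or DMSO replicate 2 (0.60), and RCOR3 rose in SK-N-DZ (1.23). KDM1A, which encodes the demethylase LSD1, gave no call in these 4 comparisons. The list medians were 0.27, 0.09, 0.63 and 0.08.

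**Figure D4:**
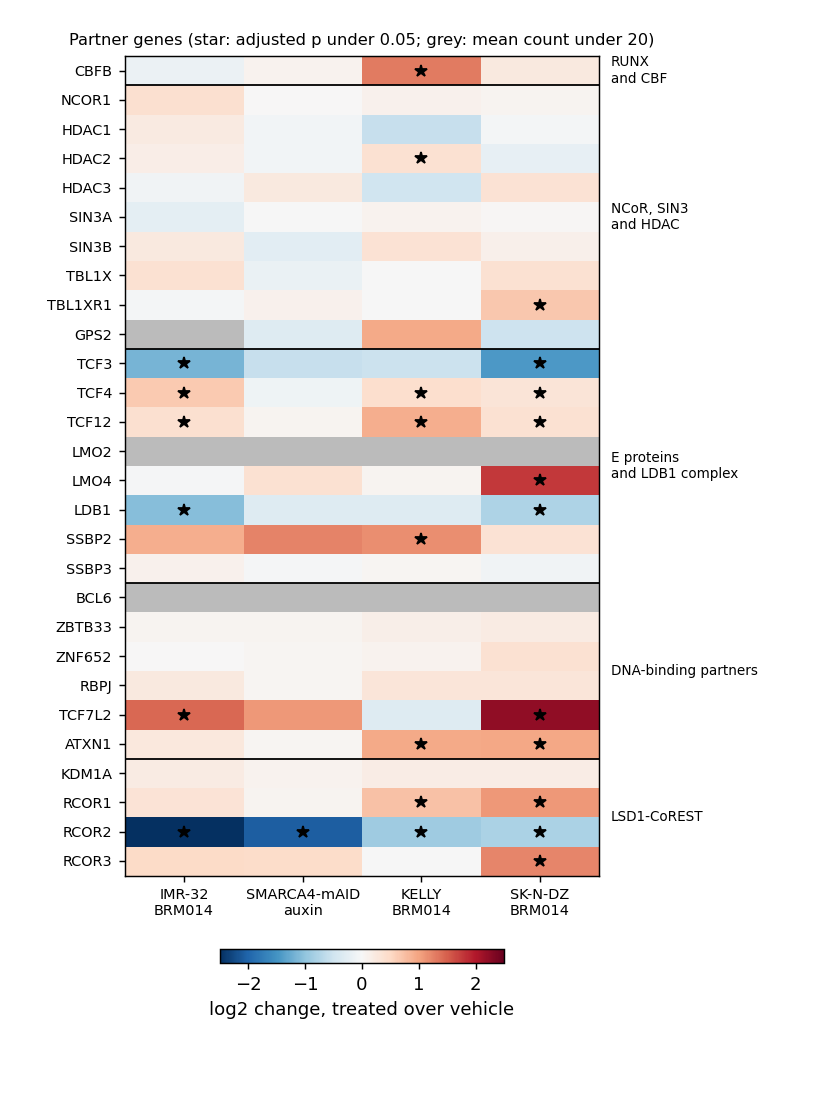
Log2 change (colour, treated over vehicle) of the partner genes described (rows, grouped by list) in the 4 treatment comparisons (columns); a star marks an edgeR adjusted p under 0.05 and grey a mean count under 20 in the higher group. RCOR2 is starred as lower in all 4 columns, whereas most NCoR and SIN3 genes have no star.

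Genes with a pattern like that of RUNX1T1 were ranked by Pearson's r of log2(CPM + 1) over the 16 labelled libraries, among 9900 tested genes of at least 10 CPM on average. These libraries share lines, treatments and depth, so r is a description. NRP2, a co-receptor for semaphorins and VEGF, ranked highest (r = 0.796), with 42 CPM in IMR-32 with BRM014 and 106 with DMSO, 243 in KELLY with BRM014 and 43.7 with DMSO, and 413 in SK-N-DZ with BRM014 and 176 with DMSO. KLF12, a zinc finger repressor, had r = 0.774, as did the zinc finger gene ZNF81. EFNA5, an ephrin ligand, had 0.746, SYT1, the calcium sensor of synaptic vesicles, 0.744, and SETDB2, a SET domain protein, 0.742. The lowest were GTPBP10, a mitochondrial GTPase (-0.843), FAM89A (-0.819) and SKP2, an F-box protein of a ubiquitin ligase (-0.780). SKP2 had 266 CPM in IMR-32 with BRM014 and 237 with DMSO, and 161 in SK-N-DZ with BRM014 and 237 with DMSO. None of the 3 MTG genes was among those most like another. RUNX1T1 had r = -0.122 with CBFA2T2 and 0.291 with CBFA2T3, and CBFA2T2 with CBFA2T3 had -0.723.

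The genes most like CBFA2T2 were KDM7A, a histone demethylase (r = 0.945), and CPEB2, an RNA-binding regulator of translation (r = 0.904). KDM7A had 195 CPM in IMR-32 with BRM014 and 49.7 with DMSO, 235 in KELLY with BRM014 and 132 with DMSO, 205 in SK-N-DZ with BRM014 and 128 with DMSO, and 63.6 with auxin and 51.9 with ethanol. CBFA2T3 was most like VPS33B, a vesicle tethering protein (0.939), and ST6GALNAC5, a sialyltransferase (0.929). ST6GALNAC5 had 50.9 CPM in IMR-32 with BRM014 and 84.8 with DMSO, and 64.3 with auxin and 184 with ethanol.

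**Figure D5:**
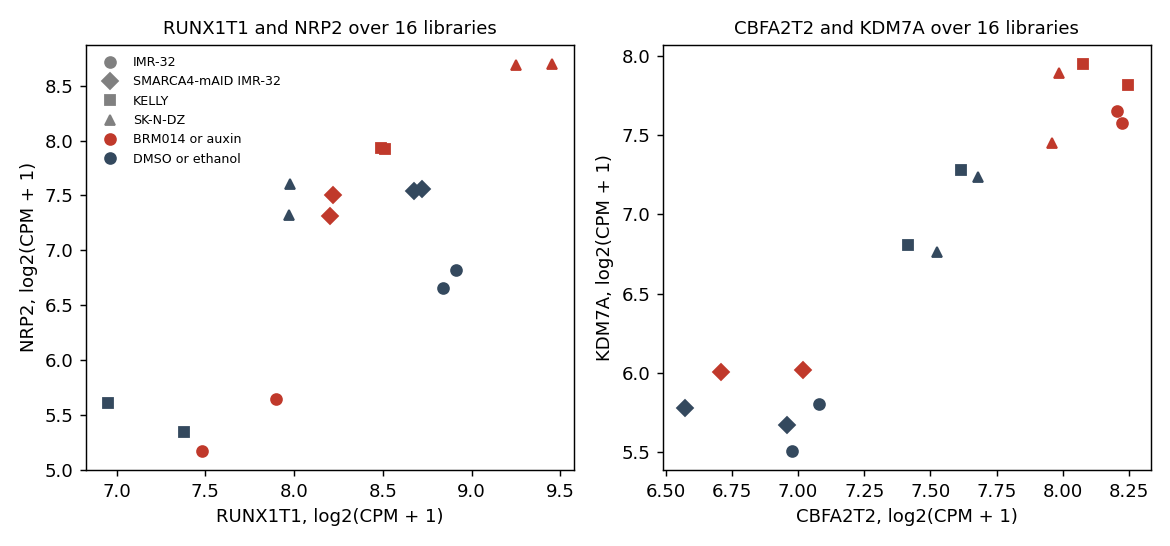
Levels as log2(CPM + 1) in the 16 labelled libraries of RUNX1T1 against NRP2 (left) and CBFA2T2 against KDM7A (right); shapes are cell lines, red points BRM014 or auxin and dark points DMSO or ethanol. In the left panel SK-N-DZ with BRM014 is highest on both axes (r = 0.796), and in the right panel the IMR-32 libraries with BRM014 stand far above those with DMSO (r = 0.945).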

How the data were processed

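Raw counts per gene symbol were deposited by the authors as conversion counts of reads from 4sU-labelled messenger RNA. The submitters' processing notes name HISAT, HTSeq, DESeq2 and the build hg38, and give no version or role for them. Per the labels' protocols, RNA of labelled cells was treated with iodoacetate and captured on poly(dT). The sources used here do not give the rule by which a read was counted, the annotation or the strand setting. The summary lines at the end of each file were left out of library sizes. Reads without a feature were 46.4% to 57.4% of each labelled library and ambiguous reads 1.11% to 1.71%. In IMR-32 reads without a feature were 57.3% and 57.4% with BRM014, against 50.8% and 53.5% with DMSO.

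CPM is a count per 1000000 counts on genes. Changes were fitted with edgeR 4.0.16 in R 4.3.3 (quasi-likelihood, TMM factors, filterByExpr, which kept 12853 genes) over the 16 labelled libraries with a mean per group (8 residual degrees of freedom), and adjusted by Benjamini-Hochberg over all genes. The fit gave a biological coefficient of variation of 0.143. SE was taken from the F statistic. A gene was called, and said to rise or fall, at an adjusted p under 0.05. Changes are relative to the other genes, so one common to all genes would not show, and fewer cells and less RNA per cell cannot be told apart. In data simulated for BRM014 in IMR-32 over 12853 genes, 64% of 100 genes changed by 1 on the log2 scale and 97% of 100 changed by 2 were recovered, with 4.17% false calls. The changed genes were drawn only from those of higher mean level, with a common spread for all genes. This recovery therefore does not describe low-count genes such as CBFA2T3. Libraries of a group differed by more than sampling noise (chi-square per degree of freedom 2.37 to 3.41). Counting intervals are exact at 95% and, like floors, cover counting error only.

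Levels per kb used GENCODE exons merged over transcripts, and promoters were RefSeq's. RUNX1T1 has no promoter shown, and some genes are not reported here. The members, lists and tests were chosen with earlier results of these data known. Named genes were the members, up to 2 called genes per list and comparison with the smallest p and a mean count of at least 20, neighbours, and the genes of highest (for RUNX1T1 also lowest) r. RCOR2 in SK-N-DZ, TWIST1, the levels of YAP1, CD44, VIM and MYCN, and the remaining E protein list calls were named after their values were seen. Alternatives were DESeq2 1.42.0 and its size factors, library totals, no filter, a fit per comparison, a replicate block, a GC and length correction (values for 97.3% of genes), TMM-scaled CPM and each library left out.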

Additional observations from a re-analysis of the deposited data

Results flagged for a closer look

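CBFA2T2 gave calls in 2 tests of a difference between changes. Its log2 change with BRM014 in SK-N-DZ minus that in IMR-32 was -0.87 (edgeR interaction adjusted p = 0.0118), which was not called without IMR-32 DMSO replicate 1 (adjusted p = 0.0788) or SK-N-DZ DMSO replicate 2 (adjusted p = 0.0894). The other comparisons of lines, KELLY minus IMR-32 (adjusted p = 0.170) and SK-N-DZ minus KELLY (adjusted p = 0.556), were not called. Its change with BRM014 in IMR-32 minus that with auxin in SMARCA4-mAID IMR-32, which sets different agents in different cells against each other, was 1.16 (adjusted p = 0.000533). RUNX1T1 moved up in both treated libraries of KELLY and SK-N-DZ and down in both of IMR-32, with differences of 2.48 for KELLY minus IMR-32 and 2.52 for SK-N-DZ minus IMR-32. The RUNX1T1 differences were not tested, since the gene was chosen for them. Groups of 2 libraries are too small for a check of single libraries that stand apart.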

How the results depend on the processing

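The directions of RUNX1T1, CBFA2T2 and CBFA2T3 in the treatment comparisons were the same under every alternative that kept all libraries. CBFA2T2 with BRM014 in SK-N-DZ became a call in the fit to its 4 libraries (0.40) and with the GC and length correction (0.48), and in KELLY against IMR-32 with DMSO it became one with DESeq2 size factors (0.38), library totals (0.50) and the GC and length correction (0.67). With that correction CBFA2T2 in SK-N-DZ against KELLY with DMSO reversed to -0.10, and RUNX1T1 in SK-N-DZ against IMR-32 with DMSO was -0.82 (-0.91 with library totals). The auxin comparison called 515 genes in a fit to its 4 libraries, against 281. DNA-binding partners called in SK-N-DZ numbered 4 in the fit to its libraries, against 2, and LSD1-CoREST genes called in IMR-32 numbered 2 in such a fit, with DESeq2 and with its size factors, against 1. The causes were not tested. Library totals moved the median of all genes to 0.168 in KELLY against IMR-32 and 0.167 in SK-N-DZ against IMR-32 with DMSO, and the share of calls that were higher to 56.2% (KELLY against IMR-32; 45.6% with TMM) and 44.2% (IMR-32 BRM014 minus auxin; 54.4% with TMM). With the GC and length correction 52.8% of calls in KELLY minus IMR-32 were higher, and 63.3% without it. For BRM014 in IMR-32 minus auxin, TMM gave a share of 54.4% and the GC and length correction 64.1%.

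With each library left out in turn, calls numbered 904 to 1085 in IMR-32 (1650 with all), 859 to 1151 in KELLY (1485), 1614 to 1856 in SK-N-DZ (2498), 124 to 139 with auxin (281), 276 to 384 for KELLY minus IMR-32 (422), 221 to 295 for SK-N-DZ minus IMR-32 (336), 318 to 423 for SK-N-DZ minus KELLY (501), 131 to 174 for IMR-32 minus auxin (250), and 367 to 495 for ethanol SMARCA4-mAID against DMSO IMR-32 (792). Fewer samples enter these fits. CBFA2T3 ranged over -3.41 to -2.17 in IMR-32, -2.39 to -1.88 with auxin, -3.48 to 1.33 for SK-N-DZ minus IMR-32 (-0.03 and -0.21 among its reversals), and -2.54 to -1.46 in SK-N-DZ against IMR-32 with DMSO. CBFA2T2 ranged over -0.088 to 0.29 with auxin (-0.07 without auxin replicate 1), -0.95 to -0.78 for SK-N-DZ minus IMR-32, 0.35 to 0.52 in SK-N-DZ against IMR-32 with DMSO, and -0.0064 to 0.21 in SK-N-DZ against KELLY with DMSO. For BRM014 in IMR-32 minus auxin CBFA2T3 ranged over -1.29 to -0.058, and for ethanol SMARCA4-mAID against DMSO IMR-32 CBFA2T2 over -0.48 to -0.10 and CBFA2T3 over 0.069 to 1.15. RUNX1T1 ranged over -0.22 to 0.23 for SK-N-DZ minus KELLY (-0.07 without SK-N-DZ BRM014 replicate 2).

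Replicate numbers did not pair the libraries (correlations of deviations -0.0399 to 0.0136). A replicate block gave 1653, 1450, 2442 and 299 calls in IMR-32, KELLY, SK-N-DZ and with auxin, and it changed no call of a member or named list gene. Depth limits CBFA2T3 and RUNX1, which had at most 68 and 7 counts in a library.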
